A study of Homo sapiens with 24 samples.

Results

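SP5, TBX3, MSX1, MSX2, PITX1, ZIC2 and ZBED2 are 7 genes for transcription factors of the zinc-finger, T-box and homeobox families. They were followed through RNA-seq of 3 human colorectal cancer cell lines with and without functional *CTNNB1*, among 58051 gene identifiers listed per library. The 7 genes were chosen with their KO and WT values in these data already known, so their levels and changes are given as a description without a test. HT29 and SW480 carry mutations in *APC*, and HCT116 carries a stabilizing mutation in *CTNNB1* itself. All cell clones in the comparison, WT as well as KO, had been derived by single-cell cloning after the CRISPR/Cas9 procedure. The KO clones carry a deletion of *CTNNB1* exon 7 on both alleles, which shifts the reading frame. Each line contributed 2 WT clones and 2 KO clones, and RNA of every clone was taken through 2 rounds, A and B, giving 4 libraries per line and genotype and 24 in total. The clones were WT 11, WT 40, KO 28 and KO 38 for HT29; WT 4, WT 6, KO 44 and KO 47 for HCT116; and WT 4, WT 5, KO 17 and KO 21 for SW480. A library is called by its clone and round, such as KO 44A.

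β-CATENIN is the transcriptional co-activator at the end of the WNT pathway. When the destruction complex that contains APC fails, β-CATENIN accumulates, binds TCF/LEF proteins on DNA and activates their target genes. SP5, a relative of SP1 that binds GC boxes, is among the most widely shared direct targets of the pathway. TBX3 is a T-box repressor known for silencing cell cycle inhibitors, MSX1 and MSX2 are homeobox repressors that also respond to BMP signals, and PITX1 is a bicoid-type homeobox activator. ZIC2 belongs to the GLI-related zinc-finger proteins of neural development, and ZBED2 is a BED-type zinc-finger protein reported to act on interferon response genes. In the intestine, WNT target genes are active in the stem and progenitor cells at the base of the crypt.

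To show what lies directly before the genes with the deepest falls, the 250 bases upstream of the RefSeq start of SP5, MSX1 and ZBED2 are given 5′ to 3′ on the strand of the gene. The sequences come from RefSeq promoter windows on GRCh38.p14. Each matched exactly 1 place on its chromosome of GRCh37, the build of the expression data, and the coordinates are those of GRCh37. Capitals mark every match to CTTTGA, the core of the TCF/LEF motif, on either strand, so that a match on the reverse strand reads TCAAAG.
SP5, chr2:171571597-171571846, plus strand: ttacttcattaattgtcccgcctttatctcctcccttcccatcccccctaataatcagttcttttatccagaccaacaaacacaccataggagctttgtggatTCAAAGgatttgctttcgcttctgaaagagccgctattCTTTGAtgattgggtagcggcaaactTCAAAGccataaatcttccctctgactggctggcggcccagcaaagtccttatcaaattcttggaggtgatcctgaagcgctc
MSX1, chr4:4861142-4861391, plus strand: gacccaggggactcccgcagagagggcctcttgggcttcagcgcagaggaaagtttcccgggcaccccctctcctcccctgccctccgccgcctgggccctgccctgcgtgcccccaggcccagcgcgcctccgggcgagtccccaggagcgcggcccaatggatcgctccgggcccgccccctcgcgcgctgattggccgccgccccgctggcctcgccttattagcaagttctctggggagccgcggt
ZBED2, chr3:111314194-111314443, minus strand: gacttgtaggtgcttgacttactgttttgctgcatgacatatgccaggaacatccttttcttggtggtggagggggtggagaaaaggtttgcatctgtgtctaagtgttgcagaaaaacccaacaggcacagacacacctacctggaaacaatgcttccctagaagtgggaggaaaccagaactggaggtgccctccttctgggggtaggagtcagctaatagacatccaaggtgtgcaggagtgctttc
SP5 held 3 matches to CTTTGA, whose first bases lay 147, 109 and 83 bases upstream of the start, with the outer matches on the reverse strand. The window searched was 300 bases long, from 250 before to 50 after the start, and 6 of the 7 genes had one. MSX1, MSX2, PITX1, ZIC2 and ZBED2 had 0 matches in theirs. Of all 35116 RefSeq promoter windows of this length, 12.9% held CTTTGA at least 1 time, 1.29% at least 2 times and 0.0997% at least 3 times. The GC box GGGCGG, the motif that SP1-like proteins bind, was found 1 time in SP5, 2 times in MSX1, 4 times in PITX1 and 4 times in ZIC2, counting both strands. In ZIC2 these matches formed pairs that overlapped each other, and none of the GC boxes overlapped CTTTGA. At least 1 GC box was present in 45% of all windows. AGGTGT, a short motif for T-box proteins, occurred 2 times in ZBED2 and 1 time in ZIC2, against 11.4% of windows with at least 1 and 0.908% with at least 2. These matches are descriptions of short windows and do not mark sites of binding.

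Values below are normalized counts, which are read counts per gene divided by a size factor for the library, and means are given ± SD over 4 libraries (2 clones, each sequenced in 2 rounds). The libraries held 22297049 to 29068378 reads on genes, with a median of 27486226. The targeted gene followed the labels, since *CTNNB1* was at 5883 to 50939 in the 12 WT libraries and at 187 to 1312 in the 12 KO libraries. The epithelial genes *EPCAM*, *KRT8*, *KRT18*, *KRT19* and *CDH1* were present in every group. *CDX1*, an intestinal homeobox gene, was at 3 reads or fewer in every library of 5 of 6 groups. The 11 epithelial genes summed to 325840 to 466930 in WT and 490840 to 784660 in KO libraries of HT29, 131460 to 161230 and 135930 to 194200 in HCT116, and 142500 to 197520 and 152940 to 177140 in SW480. The 9 measured markers of blood, vessel and connective tissue cells summed to 15.2 to 26.9 and 30.2 to 93.0 in HT29, 292 to 465 and 333 to 408 in HCT116, and 265 to 609 and 357 to 455 in SW480, with *CD68* at the floor of 3 reads in every group.

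Some of these markers moved with genotype, by adjusted p from limma. In SW480 the intestinal factor gene *CDX2* fell from 857 to 1333 down to 52.7 to 165 (adjusted p = 3.8e-05) and the collagen gene *COL1A2* from 40.4 to 122 down to 0 to 0.941 (adjusted p = 1.9e-06), while the endothelial gene *VWF* rose from 9.65 to 27.4 up to 114 to 234 (adjusted p = 5.3e-05). In HCT116 *KRT20* fell from 58.2 to 104 down to 0 to 0.983 (adjusted p = 3.5e-06). In HT29 the epithelial genes *KRT19* (log2 fold change 1.54, adjusted p = 0.0054), *KRT20* (2.34, adjusted p = 0.036), *CDH17* (5.87, adjusted p = 0.036) and *LGALS4* (2.21, adjusted p = 0.044) rose. For these 4 genes a random effect for the clone gave adjusted p values of 0.0721, 0.0978, 0.0887 and 0.0898, and each of *KRT20*, *CDH17* and *LGALS4* lost its call when any of several single libraries was left out. The part of these shifts in the levels of the 7 factors was not tested. Because these are bulk samples, fewer cells with a transcript and less transcript per cell cannot be told apart. The library kit did not keep the strand, so reads of a gene and of an overlapping antisense gene cannot be told apart either.

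**Figure D1:**
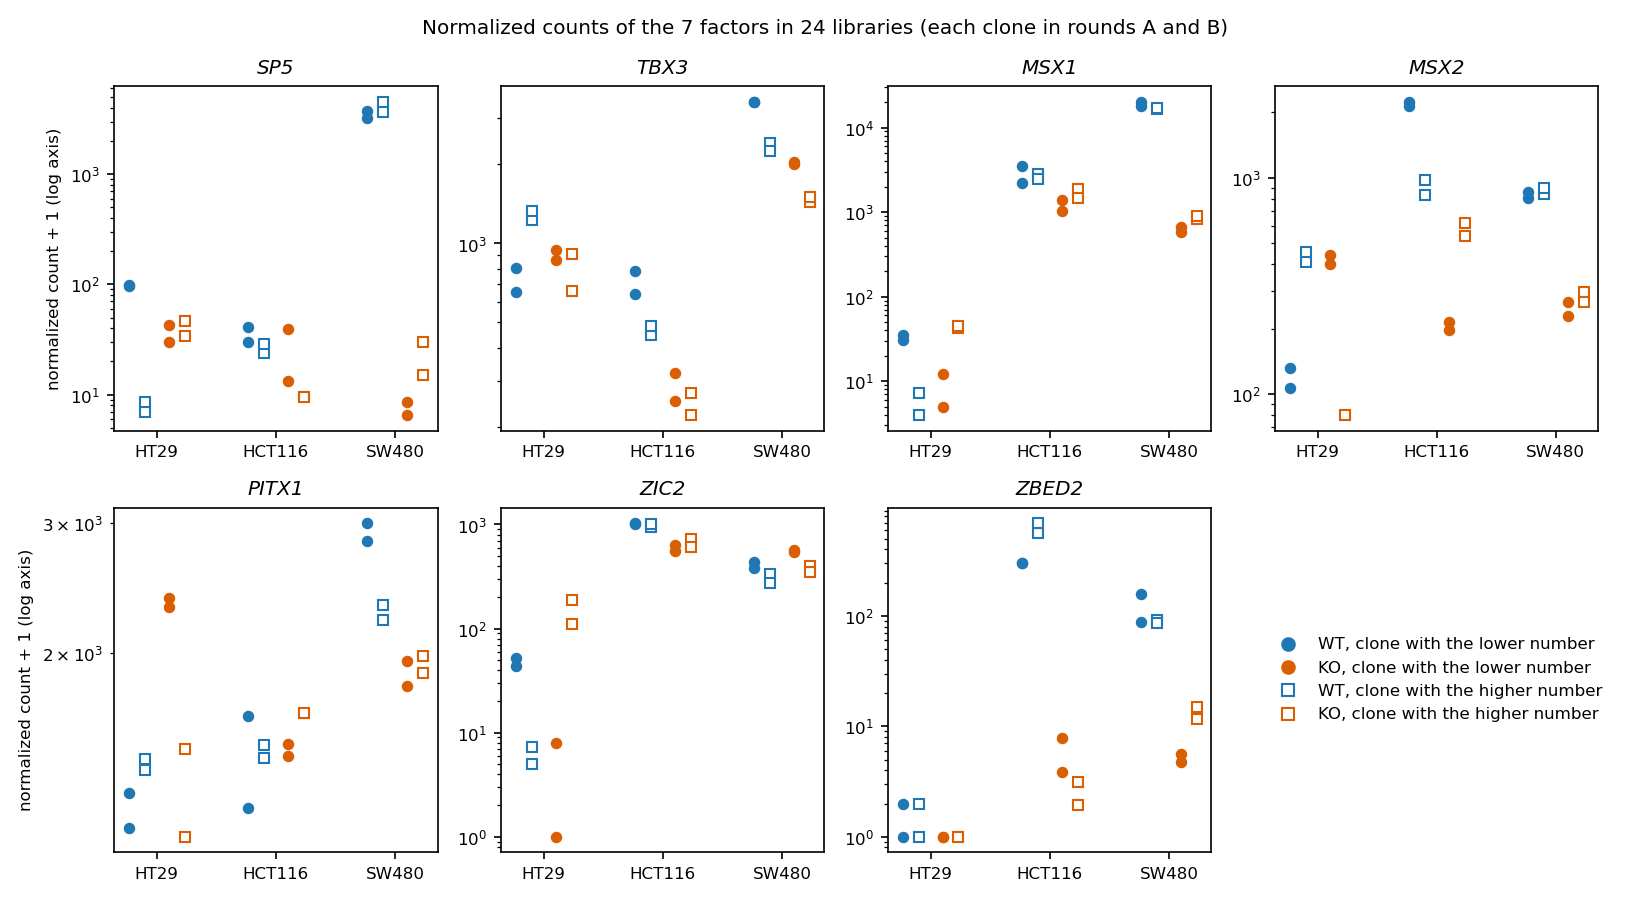
Normalized counts plus 1 on a log axis for each of the 7 genes, with WT in blue and KO in orange for each line; filled circles are the clone with the lower number and open squares the other clone, each in rounds A and B. SP5, TBX3, MSX1, MSX2, PITX1 and ZBED2 show KO points below all WT points in SW480, while WT and KO points of HT29 overlap for each gene.

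WT levels were read by line as a description. Of all genes compared, 59% to 69.3% did not overlap between the WT libraries of a pair of lines. SP5 was 73.7-fold higher in WT SW480 (3794 ± 544) than in WT HT29 (51.5 ± 51.7), and 127-fold higher than in WT HCT116 (30.0 ± 7.35). MSX1 followed the order SW480 (18028 ± 1638), HCT116 (2754 ± 539) and HT29 (18.3 ± 16.0), and none of these groups overlapped. ZBED2 and ZIC2 were highest in HCT116, at 463 ± 196 and 1005 ± 33.4, and lower in SW480, at 105 ± 34.2 and 353 ± 69.4. In HT29, ZBED2 was at 0 to 0.988 in the 4 WT libraries, which is 1 read at most, and ZIC2 was at 25.9 ± 24.3. MSX2 was lowest in WT HT29 (273 ± 180), and its levels in HCT116 (1546 ± 750) and SW480 (849 ± 37.3) overlapped. TBX3 was higher in SW480 (2901 ± 656) than in HT29 (1004 ± 326) and HCT116 (590 ± 156), and the latter lines overlapped. PITX1 varied least, with 2591 ± 380 in SW480, 1454 ± 171 in HCT116 and 1317 ± 122 in HT29, of which HCT116 and HT29 overlapped.

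On the per-length scale, where normalized counts are divided by the kilobases of annotated exons, MSX1 led in WT SW480 with a mean level of 8500 per kb, followed by SP5 with 1830. The other 5 genes were at 47.6 (ZBED2) to 753 (PITX1) per kb in these libraries. In WT HCT116 MSX1 was again first with 1299 per kb and SP5 was last with 14.4. In WT HT29 PITX1 was first with 383 per kb, and MSX1, ZIC2 and ZBED2 were each under 10. The WT libraries of HT29 and SW480 did not overlap for 7 of 7 genes, those of HCT116 and SW480 for 6 of 7 and those of HT29 and HCT116 for 4 of 7. Of all genes compared, 64.1%, 69.3% and 59% did not overlap between these pairs of lines, and since WT levels were among the values that chose the genes, nothing is read from the counts.

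In SW480, where genotype moved most genes, 6 of 7 genes had every KO library below every WT library. Over all genes tested in SW480 this share was 20.9%, and the comparison was among those by which the 7 genes were chosen. Both thresholds of the comparison (adjusted p under 0.05 and absolute log2 fold change over 1 in limma) were passed downward by 4 of 7 genes, SP5, MSX1, MSX2 and ZBED2, beside 6.76% of all genes that were called lower and 10.7% that were called higher. The median log2 fold change of the 7 genes was −1.69, and that of the 16325 genes tested was −0.0042.

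SP5 showed the deepest fall. Its normalized counts were 3713, 3239, 4543 and 3682 in WT 4A, WT 4B, WT 5A and WT 5B of SW480, and 7.53, 5.50, 14.0 and 28.8 in KO 17A, KO 17B, KO 21A and KO 21B. The KO level was 0.368% of the WT mean (95% exact Poisson interval of the 59 KO reads, 0.280% to 0.474%, for counting error only). On the log2 scale this was a change of −8.23 (SE 0.41). This SE and those of the other factors count the 2 rounds of a clone as separate libraries. They can therefore understate the spread between the 2 clones of a genotype. The KO clones differed from each other by 1.51 on the log2 scale, with KO 21 above KO 17, and the log2 fold change lay between −8.98 without KO 21 and −7.48 without KO 17. The KO SW480 libraries thereby overlapped the KO HCT116 libraries, at 8.56 to 38.3. They lay under the KO HT29 libraries, at 29.2 to 45.4, and only KO 21B came close to these.

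SP5 behaved differently in the other lines. In HCT116, WT 4A, WT 4B, WT 6A and WT 6B held 40.4, 28.8, 23.1 and 27.6, whereas KO 44A, KO 44B, KO 47A and KO 47B held 38.3, 12.2, 8.56 and 8.56. The groups overlapped through KO 44A alone, which stood apart from the other 3 KO libraries. The log2 fold change was −1.04 (SE 0.44) with this library, and both thresholds were passed without KO 44A and without clone KO 44 but not in any other alternative. In HT29, WT 11A and WT 11B held 95.1 and 97.3 and WT 40A and WT 40B held 5.93 and 7.52, so that the KO libraries (29.2, 42.1, 33.2 and 45.4 in KO 28A, KO 28B, KO 38A and KO 38B) lay between the WT clones. The log2 fold change of SP5 in HT29 was 0.47 (SE 0.91), and it turned from −1.36 without clone WT 40 to 2.30 without clone WT 11.

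ZBED2 fell in both lines in which it was expressed. In HCT116 it was at 302, 299, 562 and 691 in WT 4A, WT 4B, WT 6A and WT 6B, and at 6.88, 2.83, 2.14 and 0.952 in KO 44A, KO 44B, KO 47A and KO 47B. The 13 KO reads amounted to 0.690% of the WT mean (95% exact Poisson interval 0.368% to 1.18%), and the log2 fold change was −6.88 (SE 0.43). A pseudocount of 5 in place of 1 gave −5.79. In SW480 the WT libraries were at 157, 87.3, 91.7 and 86.1 (WT 4A, WT 4B, WT 5A, WT 5B) and the KO libraries at 3.76, 4.59, 14.0 and 10.6 (KO 17A, KO 17B, KO 21A, KO 21B). This was 7.80% of the WT mean (5.44% to 10.8% for 35 KO reads), with a log2 fold change of −3.64 (SE 0.39). In HT29 the gene was not tested, since WT 11A and WT 40A held 1 read each and the other 6 libraries held 0.

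ZIC2 was lower in KO than in WT libraries of HCT116 and varied by clone in the other lines. In HCT116 the WT libraries were at 1028, 1020, 955 and 1016 (WT 4A, WT 4B, WT 6A, WT 6B) and the KO libraries at 633, 561, 719 and 601 (KO 44A, KO 44B, KO 47A, KO 47B). These groups did not overlap, with the KO mean at 62.6% of the WT mean and 92.5% of the sum of squares between genotypes, and the log2 fold change of −0.68 (SE 0.11) was under the fold threshold. In SW480 the KO libraries (348 to 563) reached above the WT libraries (270 to 434) with overlap, and the log2 fold change was 0.39 (SE 0.19). In HT29 the KO mean of 75.6 ± 88.8 was 2.92 times the WT mean of 25.9 ± 24.3, with overlapping libraries, and the log2 fold change of 0.26 (SE 1.62) became −2.57 without clone KO 38 and 3.09 without clone KO 28. ZIC2 is the only one of the 7 genes whose mean was higher in KO than in WT in SW480.

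MSX1, the leading transcript per kb in WT SW480, was at 18226, 20268, 16711 and 16907 in WT 4A, WT 4B, WT 5A and WT 5B. The KO libraries KO 17A, KO 17B, KO 21A and KO 21B held 583, 671, 826 and 904, which is 4.14% of the WT mean. It changed by −4.61 on the log2 scale (SE 0.13), and 99.3% of the sum of squares of the log2 values lay between genotypes. In HCT116, MSX1 was at 3480, 2240, 2818 and 2479 in the WT libraries and at 1378, 1025, 1883 and 1475 in the KO libraries, in the order WT 4A, WT 4B, WT 6A, WT 6B, KO 44A, KO 44B, KO 47A, KO 47B. All KO libraries were below all WT libraries, at 52.3% of the WT mean. The log2 fold change of −0.95 (SE 0.18) missed the fold threshold, which it passed in 3 of 21 alternatives, namely those that left out library KO 47A, library WT 4B or clone KO 47.

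MSX2, the close relative of MSX1, fell in HCT116 and SW480. In SW480 it was at 808, 855, 836 and 896 in the WT libraries and 229, 264, 294 and 265 in the KO libraries (clones 4 and 5, then 17 and 21, round A before B). KO libraries were thus at 31.0% of the WT mean, the log2 fold change was −1.69 (SE 0.09), and both clones of a genotype were within 0.18 of each other on the log2 scale. In HCT116, WT 4A and WT 4B were at 2243 and 2141 and WT 6A and WT 6B at 970 and 829, while KO 44A, KO 44B, KO 47A and KO 47B were at 215, 196, 535 and 615. The groups did not overlap, but the WT clones were 1.29 and the KO clones 1.48 apart on the log2 scale. The log2 fold change of −2.03 (SE 0.48) became −1.29 without clone KO 44 and −2.77 without clone KO 47. Both thresholds were passed in 13 of 21 alternatives. They were missed with the round as a replicate block, where the fold was the same −2.03, with clone means, without KO 44A, KO 44B, WT 4A or WT 4B, and without clone KO 44 or WT 4.

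PITX1 was expressed in every group, with means from 1317 (WT HT29) to 2591 (WT SW480). In HCT116 its WT libraries (1231 to 1644) and KO libraries (1449 to 1658) overlapped, and the log2 fold change was 0.11 (SE 0.11). In SW480 WT 4A, WT 4B, WT 5A and WT 5B were at 2994, 2831, 2322 and 2217, above KO 17A, KO 17B, KO 21A and KO 21B with 1805, 1951, 1981 and 1876. The KO mean was 73.5% of the WT mean, and the log2 fold change of −0.43 (SE 0.10) was under the fold threshold in each of 21 alternatives.

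TBX3, the T-box member, was lower in KO libraries of HCT116 and SW480. In HCT116 it was at 641, 786, 446 and 485 in WT 4A, WT 4B, WT 6A and WT 6B, and at 250, 319, 221 and 269 in KO 44A, KO 44B, KO 47A and KO 47B. The KO mean was 44.9% of the WT mean. The log2 fold change of −1.13 (SE 0.19) passed both thresholds, and lost them without WT 4B and without clone WT 4, where it was −0.82. In SW480 WT 4A and WT 4B were at 3469 and 3463 and WT 5A and WT 5B at 2414 and 2256, whereas KO 17A, KO 17B, KO 21A and KO 21B were at 2015, 2035, 1434 and 1498. Here the log2 fold change was −0.72 (SE 0.18), and it passed the fold threshold in 1 of 21 alternatives, with −1.01 without clone WT 5.

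In HCT116, 5 of 7 genes (TBX3, MSX1, MSX2, ZIC2 and ZBED2) had all KO below all WT libraries, and this was so for 9.61% of all genes tested in that line. TBX3, MSX2 and ZBED2 passed both thresholds downward, 3 of 7 genes, beside 1.89% of all genes called lower and 3.17% called higher. With the round as a replicate block, MSX2 missed them and 2 genes were left. The medians of the log2 fold changes were −1.04 for the 7 genes and −0.01 for 15404 genes. In HT29, 0 of 6 tested genes passed the thresholds (0 also with edgeR and with DESeq2), where 0.402% of all genes were called lower and 1.9% higher. No gene of the 7 had all HT29 KO below all WT libraries, compared with 4.71% of all genes. The median there was 0.33 against 0.03 for 14921 genes.

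**Figure D2:**
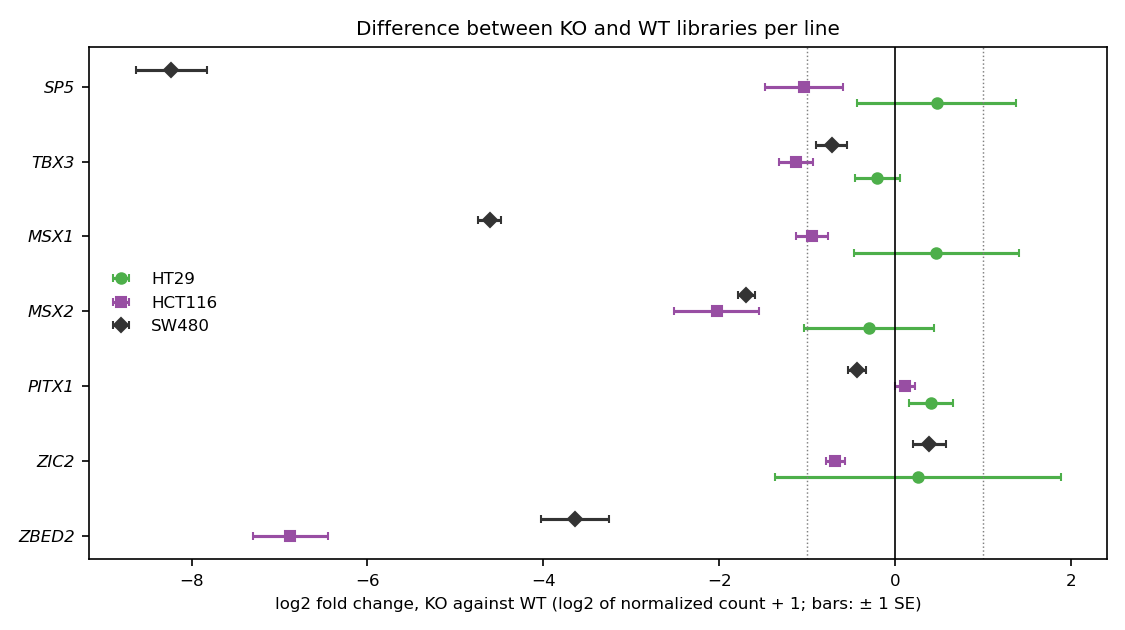
Log2 fold change of KO against WT libraries for each gene and line, with bars of ± 1 SE and dotted lines at the fold threshold of 1 in either direction. SW480 values reach −8.23 for SP5 and −4.61 for MSX1, HCT116 values reach −6.88 for ZBED2, and the HT29 points lie between −0.30 and 0.47.

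Variation between clones dominated in HT29. For the 6 tested genes, 64.7% (PITX1) to 97.4% (MSX2) of the sum of squares of log2(normalized count + 1) lay between clones of the same genotype, and 0.289% (ZIC2) to 27.5% (PITX1) between genotypes. Clone WT 40 shared features with KO 28, and clone WT 11 with KO 38. MSX2 was at 406 and 451 in WT 40A and WT 40B and at 440 and 399 in KO 28A and KO 28B, but at 106 and 131 in WT 11A and WT 11B and at 78.7 and 79.1 in KO 38A and KO 38B. MSX1 showed the opposite arrangement at low level, with 34.6, 29.4, 41.7 and 44.1 in WT 11A, WT 11B, KO 38A and KO 38B, and 2.96, 6.26, 11.1 and 3.91 in WT 40A, WT 40B, KO 28A and KO 28B. ZIC2 was at 50.9, 42.6, 110 and 185 in the former 4 libraries and at 3.95, 6.26, 7.04 and 0 in the latter.

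These arrangements did not extend to every gene. SP5 was lowest in WT 40 and highest in WT 11, with both KO clones in between. TBX3 was at 1223 and 1334 in WT 40A and WT 40B, and at 654 to 941 in the other 6 libraries. PITX1 was at 2302 and 2368 in KO 28A and KO 28B, and at 1127 to 1483 in the other 6. In HCT116 the share between clones was 2.32% (ZIC2) to 33.1% (SP5), and for PITX1 61.9% lay between rounds of a clone. In SW480 genotype took 65.6% (TBX3) to 99.3% (MSX1) of the sum of squares in 6 genes, whereas for ZIC2 58.0% lay between clones.

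**Figure D3:**
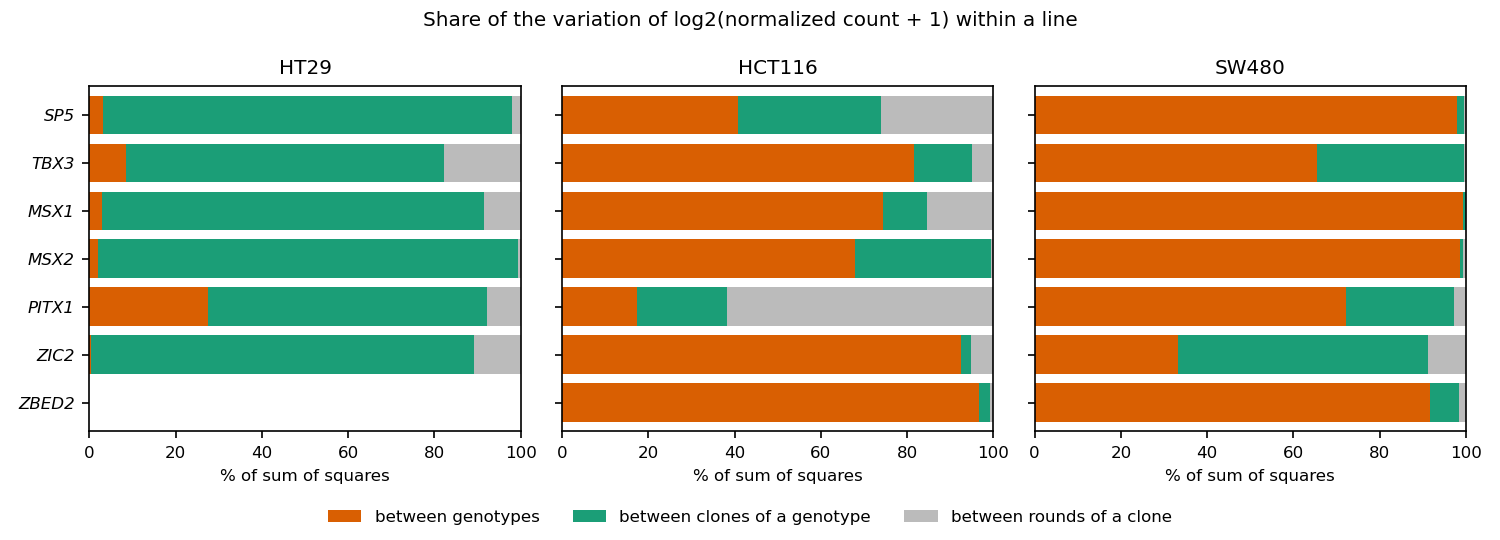
Stacked bars give, per line, the percentage of the sum of squares of log2(normalized count + 1) that lay between genotypes (orange), between clones of a genotype (green) and between rounds of a clone (grey). Green fills 64.7% to 97.4% of the HT29 bars, and orange fills 97.9% of the SP5 bar and 99.3% of the MSX1 bar in SW480. ZBED2 has no HT29 bar because at most 1 read was counted per library.

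Genes next to the 7 factors on the chromosome were read from the same comparison, with adjusted p-values from limma with Benjamini-Hochberg adjustment over all tested genes. These p-values count the 2 rounds of a clone as separate libraries, so they can understate the spread between the 2 clones of a genotype. With the clone as a random effect, 121 genes were called in HT29 in place of 343. The same setting gave 603 in HCT116 in place of 779, and 2568 in SW480 in place of 2852. *LINC01124*, a non-coding RNA gene at chr2:171568961-171571077, lies on the opposite strand with its span ending 0.77 kb before SP5. It was picked because its profile over the clones was the closest to that of SP5, so its values are a description without a test. In SW480 it was at 322, 355, 520 and 504 in WT 4A, WT 4B, WT 5A and WT 5B and at 1.87 to 5.64 in the KO libraries. The log2 fold change was −6.60 (SE 0.28). In HT29 *LINC01124* was at 19.2 and 11.2 in WT 11 and at 0.988 and 1.25 in WT 40. This is the same order of WT clones as for SP5, which the choice by profile favours. *ERICH2-DT*, which overlaps SP5 on the opposite strand, was at 41.4 to 86.9 in WT and 10.3 to 18.2 in KO libraries of SW480 (log2 fold change −2.22, adjusted p = 1.1e-04). *MYO3B*, 60.2 kb away, fell as well (log2 fold change −2.29, adjusted p = 6.3e-05), from 33.4 to 56.0 down to 5.76 to 9.34. *ERICH2*, 48.8 kb on the other side, was not called, although its KO libraries in SW480 (61.1 to 97.0) were all below the WT libraries (104 to 134).

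Around ZBED2, a set of 3 neighbours fell in HCT116. ZBED2 sits inside *CD96*, a gene of lymphoid cells read from the other strand, which was at 11.0 to 34.3 in WT and 0 to 9.63 in KO libraries (log2 fold change −3.64, adjusted p = 0.0089). *NECTIN3*, a cell adhesion gene, was at 2750 to 5850 and 156 to 504 (log2 fold change −3.77, adjusted p = 0.0010), and *PLCXD2* at 438 to 697 and 179 to 358 (log2 fold change −1.29, adjusted p = 0.0034). With the 2 rounds of a clone averaged the adjusted p of *NECTIN3* was 0.188, in a range from 3.6e-12 over the alternatives. The call of *CD96* was lost without clone KO 44 (adjusted p = 0.0757) or WT 6 (0.116, the highest in a range from 2.8e-04). *PLCXD2* lost its call without clone KO 47, at a log2 fold change of −0.95, or without WT 6 (adjusted p = 0.0559, the highest in a range from 2.9e-06). In SW480 *PLCXD2* rose, by 1.41 on the log2 scale (adjusted p = 4.9e-05), whereas ZBED2 was lower in its KO libraries.

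The nearest protein-coding gene above TBX3, *MED13L*, a Mediator subunit gene 1274 kb away, fell in HCT116 (log2 fold change −1.45, adjusted p = 0.0039) and SW480 (−1.11, adjusted p = 1.6e-05), in the latter not without clone KO 21, where the fold was −0.94. *DRD1*, a dopamine receptor gene 709 kb from MSX2, fell in HCT116 from 10.5 to 37.6 down to 0 to 5.35 (adjusted p = 0.0059), and was not called without clone KO 44 (adjusted p = 0.0533) or WT 4 (0.0651, the highest in a range from 7.8e-04). *ZIC5*, whose start lies 10.0 kb from ZIC2 on the opposite strand, was not called in any line. Its HT29 libraries were at 68.2 and 53.7 in WT 11, 156 and 153 in KO 38, 1.98 and 1.25 in WT 40 and 0 in both rounds of KO 28, which is the arrangement described for ZIC2. *PITX1-AS1* overlaps PITX1 and was not called in any line, and *TBX3-AS1*, which overlaps TBX3, was at 5.76 or less in every library.

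Of the genes with a mean of at least 50, those with profiles closest to each factor over the 12 clones were chosen by the root mean square difference of centred log2 values. *LINC01124* was the closest to SP5, with a difference of 0.93 beside 2.94 for the deviation of SP5 from its own mean. *MUCL1*, a mucin-like gene, was next with 1.21, and it was at 318 to 459 in WT SW480 libraries and at 1.07 or less in all others. ZBED2 was closest to *ADAMTS14*, a metalloprotease gene, and *DLX2*, a homeobox gene, at differences of 1.54 and 1.63. PITX1 had the smallest differences, 0.18 to *TMED10* and 0.20 to *C12orf4*, beside a deviation of only 0.37 of its own. The other pairs were *MOAP1* and *SLC2A1* for TBX3 (0.33 and 0.40), *HSPA12A* and *ARNT2* for MSX1 (1.04 and 1.05), *CYB5B* and *ZNF430* for MSX2 (0.79 and 0.81), and *EMSLR* and *GPR63* for ZIC2 (0.65 for both). These are likenesses of level over clones that share lines and genotypes, not measures of a common role.

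To set the 7 factors beside their families, 35 other SP, TBX, PITX, ZIC and ZBED genes were examined. In HT29, 0 of 15 tested genes were called by limma, although 3 had an unadjusted p under 0.05, and edgeR called 0 and DESeq2 1. In HCT116, 1 of 20 fell, *TBX4*, a T-box gene of limb development, which was at 19.3 to 28.6 in WT and at 0 to 1.07 in KO libraries (adjusted p = 8.0e-05). In SW480, 1 of 20 fell. *TBXT*, the mesoderm factor Brachyury and a known WNT target in the embryo, was at 271 to 380 in WT and 0.917 to 0.960 in KO libraries, which is 1 read in each (adjusted p = 2.5e-09). The fitted folds of *TBX4* and *TBXT* depend on the pseudocount. The list medians were −0.32, −0.15 and −0.15 in HT29, HCT116 and SW480.

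The WNT target list, also chosen with earlier results known, held 27 genes, and more of them were called lower than higher in each line. Of all genes tested, 6.76% were called lower in SW480 and 1.89% in HCT116. In SW480, 12 of 22 tested genes fell and 1 rose, with a list median of −1.76. Those that fell included the feedback inhibitors *AXIN2* (log2 fold change −4.74, SE 0.15, adjusted p = 6.7e-09), *NKD1* (−6.08, SE 0.22, adjusted p = 2.5e-08) and *NOTUM* (−8.32, SE 0.43, adjusted p = 2.2e-07). *LEF1*, a nuclear partner of β-CATENIN, fell from 3622 ± 348 to 324 ± 91.1 (−3.52, SE 0.18, adjusted p = 2.1e-07), and *TCF7*, *FGF20*, *ASCL2*, *TNFRSF19*, *BMP4*, *RNF43*, *APCDD1* and *ZNRF3* fell too. *CD44*, an adhesion receptor, rose (1.30, SE 0.10, adjusted p = 2.7e-06). In HCT116, *AXIN2*, *RNF43*, *BMP4* and *TCF7* fell and *CD44* and *SOX9* rose, 6 of 19 genes with a list median of −0.55. The call of *TCF7* (log2 fold change −1.02) was lost without KO 44B (−0.92), WT 6A (−0.98) or WT 6B (−0.99), which fell under the fold threshold. It was also lost without the whole clone KO 44 (−0.95) or WT 6 (−0.91). The partner gene *TCF7L2* fell there as well, from 4079 ± 872 to 1369 ± 267 (log2 fold change −1.57, adjusted p = 1.9e-04).

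HT29 had 5 of 18 tested WNT targets called, all lower, which were *AXIN2*, *LGR5*, *TCF7*, *EPHB2* and *ZNRF3*, with a list median of −0.73. Of all genes tested in HT29, 0.402% were called lower. *AXIN2* fell from 675 ± 78.3 to 78.8 ± 71.2 (log2 fold change −3.70, SE 0.70, adjusted p = 0.032), and *LGR5*, the stem cell receptor, from 927 ± 166 to 84.9 ± 84.2 (−4.36, SE 0.90, adjusted p = 0.042). The count of 5 depended on single libraries, since 0 were called without KO 28A, WT 40A or WT 40B, 1 without WT 11A, 2 without WT 11B and 3 without KO 28B. It was 3 with edgeR, 7 with DESeq2, 3 with the round as a replicate block and 0 with clone means. With the clone as a random effect, whose correlation is estimated, 0 were called, with an adjusted p of 0.0601 for *AXIN2* and 0.084 for *LGR5*. Over the 21 alternatives the adjusted p ran from 4.2e-05 to 0.698 for *AXIN2*, and over 20 from 1.5e-04 to 0.783 for *LGR5*.

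MSX genes are classical responders to BMP, and 12 BMP pathway genes were examined for this reason, again with earlier results known. Of all genes tested, 1.89% were called lower in HCT116. In SW480, 6.76% were called lower and 10.7% higher. In HCT116, 5 of 9 tested genes fell and 0 rose, with a list median of −2.20. These were the ligand genes *BMP4* (log2 fold change −4.34, SE 0.58, adjusted p = 0.0029) and *BMP7* (−1.18, SE 0.17, adjusted p = 0.0011), the target *ID2* (−2.20, SE 0.34, adjusted p = 0.0033) and the inhibitors *SMAD7* (−2.35, SE 0.30, adjusted p = 5.0e-04) and *BAMBI* (−2.31, SE 0.29, adjusted p = 5.0e-04). With clone means *BMP4* (adjusted p = 0.239, in a range from 1.6e-12) and *ID2* (0.195, in a range from 2.3e-10) were no longer called. In SW480, the same 5 fell and *SMAD6*, *NOG* and *ID1* rose, out of 10 tested genes with a list median of −1.12. *NOG*, the gene of the secreted BMP antagonist NOGGIN, rose from 41.5 to 54.6 in WT up to 414 to 621 in KO libraries (log2 fold change 3.35, adjusted p = 8.4e-08). In HT29, 0 of 7 tested genes were called by limma (1 at an unadjusted p under 0.05, 0 with edgeR, 1 with DESeq2).

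Genes that TBX3 or PITX1 are known to act on formed a list of 7, likewise chosen with earlier results known. Of all genes tested, 10.7% were called higher in SW480 and 3.17% in HCT116. In SW480, 3 of 6 tested genes rose and 0 fell, among them the cell cycle inhibitor genes *CDKN2A* (from 1985 ± 137 to 5565 ± 1559, adjusted p = 9.0e-05) and *CDKN2B* (from 451 ± 43.1 to 2269 ± 465, adjusted p = 4.5e-07), which TBX3 is known to repress. *RASAL1*, a RAS inhibitor gene that PITX1 is known to activate, also rose (log2 fold change 1.30, adjusted p = 0.048), but was called in only 10 of 21 alternatives, with adjusted p from 0.0049 to 0.365. The SW480 KO clones are described as turning senescent in long culture, and the part of that state in these levels was not tested. In HCT116, 1 of 7 rose, the adhesion gene *CDH1* (log2 fold change 1.17, adjusted p = 2.0e-04). In HT29, 0 of 7 were called by limma (2 at an unadjusted p under 0.05, 0 with edgeR, 1 with DESeq2).

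Interferon response genes, on which ZBED2 is reported to act, were a list of 14, likewise chosen with earlier results known. Of all genes tested, 10.7% were called higher in SW480 and 3.17% in HCT116. In SW480, 7 of 12 tested genes rose and 1 fell, with a list median of 1.43. *IFIT2* rose from 21.9 ± 12.7 to 432 ± 77.8 (log2 fold change 4.41, SE 0.38, adjusted p = 7.4e-06), and *IFIT1*, *IFIT3*, *OAS1*, *IRF1*, *MX1* and *ISG15* rose too, while *OAS2* fell (−1.46, SE 0.31, adjusted p = 0.0033). In HCT116, with the KO mean of ZBED2 at 0.690% of the WT mean, 1 of 11 rose, with a list median of −0.06. This was *IFIT3* (from 35.8 ± 11.6 to 111 ± 58.7, adjusted p = 0.027). That call was absent in 8 of 21 alternatives, such as without KO 44A (adjusted p = 0.0749), KO 44B (0.0753), WT 6A (0.0834) or WT 6B (0.0757), in a range from 6.2e-04 to 0.236. In HT29, with next to no ZBED2 in either genotype, 0 of 13 were called by limma at a list median of 1.25 (3 at an unadjusted p under 0.05, 0 with edgeR, 6 with DESeq2). The part of ZBED2 in the levels of these genes was not tested in any line.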

How the data were processed

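RNA of 24 samples was sequenced with TruSeq RNA v2 libraries, and the 7 genes and all gene lists were chosen with earlier results of these data known. Per the labels and the methods of the study, the authors aligned reads to GRCh37 with STAR 2.7.5b, counted genes with featureCounts 2.0.1 and normalized with DESeq2 (2.11.40.6). The values deposited by the authors are signal, that is counts over 1 size factor per library. Whole reads (within 0.01 read) were recovered for all genes of each library. Tables of the authors' own comparisons (fold changes and p-values) were not used here.

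Values were compared as log2(value + 1) with limma 3.58.1 (trend, robust) within each line. A gene was tested if 4 or more libraries of the line held a value of 10 or above. Called genes had a Benjamini-Hochberg adjusted p under 0.05 and moved by more than 1 on the log2 scale. The limma, edgeR and DESeq2 steps were tested on simulated data. Alternatives used edgeR 4.0.16 and DESeq2 1.42.0 on recovered reads, other filters and pseudocounts (0.1 and 5), the round as a replicate block, clone means, the clone as a random effect, TMM-scaled CPM for WT levels, and leaving out each library and clone. The genes named were the 7 factors, their neighbours in the annotation, the 2 closest profiles per factor, and list genes called in at least 1 line. Gene positions and exon lengths are from GENCODE v44 lifted to GRCh37. Of the list symbols, *ZBED8*, *ZBED9* and *PECAM1* had no match. The results of 1 gene of the family list and 1 marker gene are not reported here.

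Whether rounds paired libraries was checked with the A to B differences of 2 clones of a line, correlated over genes. It ran from 0.182 to 0.374 in HCT116 (6 of 6 pairs over 0.1), −0.309 to 0.424 in HT29 (2 of 6) and −0.0411 to 0.127 in SW480 (1 of 6), so rounds counted as paired in HCT116 only. The main fits held no term for the round, so the SEs and p-values of HCT116 leave this pairing out. With the round as a replicate block, 768 genes were called in HCT116 in place of 779. Libraries held 22297049 to 29068378 reads on genes; intervals and the floor of 3 reads cover counting error only.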

Additional observations from a re-analysis of the deposited data

Results flagged for a closer look

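Among 42 groups of 4 libraries of the 7 factors, 2 held a library far from the other 3 by Dixon's ratio at the 95% level, where chance gives about 1 in 20 groups. SP5 was at 38.3 in HCT116 KO 44A, against 8.56 to 12.2 in the other KO libraries. ZBED2 was at 157 in SW480 WT 4A, against 86.1 to 91.7 in the other WT libraries.

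Of 153 named and listed genes, 8 had all KO libraries below all WT libraries in 1 line and above them in another. Only lines in which the gene passed the filter on low values were counted. The difference between lines was not tested for any of these genes. Every KO library lay below every WT library for 20.9% of all genes tested of SW480, 9.61% of HCT116 and 4.71% of HT29. How many of all genes went opposite ways between lines was not counted, so nothing is read from the 8. The log2 fold changes of *PLCXD2*, next to ZBED2, were −1.29 in HCT116 and 1.41 in SW480. *SP6*, a relative of SP5, had 0.40 in HCT116 and −0.81 in SW480. The WNT target *EPHB2* had −1.93 in HT29 and 0.82 in SW480, and *TCF7L2* had −1.57 in HCT116 and 0.44 in SW480. The epithelial genes *EPCAM* (0.46 in HCT116, −0.99 in SW480) and *KRT20* (2.34 in HT29, −5.78 in HCT116) also went both ways. *STX18*, next to MSX1, had 0.28 in HT29 and −0.87 in SW480, and *TMED10* had 0.36 in HT29 and −0.40 in SW480.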

How the results depend on the processing

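Over all settings tried, 13 of 21 kept MSX2 of HCT116 past both thresholds, and each of the settings run kept SP5, MSX1, MSX2 and ZBED2 of SW480 and ZBED2 of HCT116 there, except that SP5 and ZBED2 of SW480 and ZBED2 of HCT116 were not tested when 10 was asked of all libraries, which left 2 of the 7 factors called in each of these lines. Without clone WT 4, 1 factor was called in HCT116, and without clone WT 11, 1 in HT29. In the fits that left out 1 library, 0 factors were called in HT29 and 4 in SW480 each time, and 2 to 4 in HCT116. No called factor changed direction.

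Counts over all genes moved most in HT29, from 343 to 780 with DESeq2, 212 with 10 in all libraries, 217 with the round as a replicate block, 121 with the clone as a random effect and 0 with clone means (849 at an unadjusted p under 0.05 in limma). It was 647 without clone KO 28, 648 without KO 38, 213 without WT 40, and 145 (without WT 11A) to 331 without single libraries. In HCT116 clone means gave 358 and leaving out clone KO 47 gave 1180 in place of 779, with 668 to 894 without single libraries. In SW480 the filter of 10 in all libraries gave 1833 in place of 2852, with 2750 to 2866 without single libraries. The round changed no other call of the 7 factors.

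The HT29 WNT targets called were 3 with edgeR, 3 with 10 in all libraries, 3 with the round as a replicate block, 0 with clone means or the clone as a random effect, 2 without clone WT 11, 0 without WT 40, and 0 to 5 without single libraries. Paralogs called in HT29 were 1 with DESeq2, a filter of 1 or a pseudocount of 5, 2 without clone KO 28, 1 without KO 38, and 0 to 1 without single libraries. In HCT116 they were 0 with DESeq2 or 10 in all libraries and 1 to 2 without single libraries, and in SW480 1 with 10 in all libraries. BMP genes called were 1 in HT29 with DESeq2 and 3 in HCT116 with clone means. The genes that TBX3, PITX1 or ZBED2 act on numbered 7 in HT29 with DESeq2, 1 without clone KO 28, 11 without KO 38, 2 without WT 40, and 0 to 1 without single libraries. In HCT116 they were 1 with clone means or the clone as a random effect, 4 without clone WT 4, 1 without WT 6, and 1 to 2 without single libraries. The cause of these shifts was not tested. WT levels between lines kept their direction as TMM-scaled CPM in 19 of 19 comparisons.

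Precision was limited by depth where a factor had few reads. This concerns SP5 in KO SW480 and HCT116, ZBED2 in all KO libraries and MSX1 and ZIC2 in HT29. It also concerns SP5 in clone WT 40 of HT29, with 6 reads in each round.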
